A study of Danio rerio with 24 samples.

Results

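Transcript levels were compared between 6 pools of zebrafish embryos labelled knockout (KO) and 6 wild-type (WT) pools, 12 of the 24 RNA-seq libraries in the series. The 6 KO pools were those in which the apelin receptor transcript aplnrb was higher among the 12 KO pools, at 16.1 to 17.7 counts per M counts of a library (CPM, with M the SI prefix mega). The 6 KO pools left out held 9.70 to 12.4 CPM, so the members just inside and just outside the choice lay at 16.1 and 12.4 CPM, and the 12 WT pools held 21.4 to 27.0 CPM. The WT pools were replicates 1 and 2 of each treatment, taken because their profile departs from the WT mean in the direction in which these KO pools depart from the KO mean (r = 0.56 across genes, which are not independent replicates). Both choices used measured values of these libraries, and the labels give no batch that would name the same pools.

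The 12 pools fall into 3 treatments, each with 2 KO and 2 WT pools. DMSO, the solvent, was given to KO replicates 1 and 3 and is labelled with a time of 0 h. ML233, known as an agonist of the apelin receptor and called a tyrosinase inhibitor in the series' title, was given at 0.5 µM for 3 h to KO replicates 1 and 2 and for 24 h to KO replicates 1 and 3. All pools were whole embryos at 3 days after fertilisation, about 50 embryos to a pool, and the labels call the replicates biological without saying which share parents. The KO line is described in conflicting ways. Titles name the apelin receptor, the growth protocol names mutants of the receptor genes aplnra and aplnrb in the AB strain with WT controls from the same grandparents, and the design text names apelin; the only allele described is an insertion in the apelin gene that creates an early stop codon. Which allele these pools carry, and whether the mutants descend from 1 founder, is not stated.

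Apelin is a secreted peptide, and with the related peptide Apela it acts on G-protein-coupled receptors that zebrafish encode in the paralogs aplnra and aplnrb. The pathway is best known in fish for guiding heart precursor cells and growing blood vessels. The largest differences described here were in other genes. Matrix metalloproteinases cut the extracellular matrix, cytokines and chemokines recruit leukocytes, and AP-1 and STAT3 factors are known to act early after tissue injury in zebrafish.

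The CRISPR guides with which, per the labels' protocols, the mutants were made are given because they name the genes that bear on the KO label. They are written 5′ to 3′, with the 10 bases nearest the PAM, where Cas9 is least tolerant of mismatches, in capitals.
apln guide: gaatgtgaagATCTTGACGC
aplnra guide: tgggtgtgacTACTCGGAGT
aplnrb guide: cttgcagagtGCCACGCCAA
A transcript with a small insertion or deletion is still counted, so the levels of these genes do not check the genotype.

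The 12 libraries held 29.0 to 43.4 M counts each. No pair of the same genotype agreed within sampling noise, with a chi-square per degree of freedom over genes of 4.15 to 17.4 over all such pairs and 4.15 to 8.92 within a treatment, and none was treated as a second deposit. Of 37660 genes in the table, 27010 were tested, and 4448 had no count in the 12 libraries. Of 23 markers of the tissues of a whole embryo, 21 were found in the table and 19 had a count in each of the 12 libraries; mylpfa of fast muscle and lyz of neutrophils were at 0 in at least 1 library. In whole embryos, fewer cells of a type and less RNA per cell cannot be told apart.

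Because the libraries were chosen on their values, differences between them are described without a p-value. A gene is called separated when all 6 KO values lie on the same side of all 6 WT values, and listed when it is separated and differs by at least 2-fold. Separated genes numbered 522 higher in KO (1.93% of 27010) and 520 lower (1.93%). Listed genes numbered 110 higher (0.407%) and 20 lower (0.074%). Among the 110 genes the median difference was 1.39 on the log2 scale, and it was 1.41 in DMSO, 1.31 after ML233 for 3 h and 1.39 after 24 h. Separation over all 6 pools fixes the sign within each treatment, so these medians describe the size only. The SD of log2 CPM of these genes had a median of 0.40 over the KO pools and 0.33 over the WT pools, against 0.16 in either genotype over all tested genes.

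The same contrast was tested on the groups as labelled, with all 24 libraries in 1 edgeR quasi-likelihood fit and the KO minus WT difference averaged over the 3 treatments. This test holds the 12 chosen libraries and the other 12, so a call may rest on the others. At an adjusted p under 0.05 it called 2537 genes higher (9.39%) and 1701 lower (6.3%). Within a treatment it called 28 genes higher (0.104%) and 12 lower (0.0444%) in DMSO, 27 (0.1%) and 13 (0.0481%) at 3 h, and 100 (0.37%) and 24 (0.0889%) at 24 h. An alternative added after the data were seen had 4 label-blind principal components as covariates. With them the averaged edgeR test called 0 genes at an adjusted p under 0.05. At an unadjusted p under 0.05 it called 1435, against 7875 without the components. Each call of the averaged test reported here is thus lost under this alternative. The components came from all 24 libraries with genotype left in, so they can hold the KO minus WT difference itself. Whether they do was not tested. The counts within a treatment fell to 0 when WT DMSO replicate 1, 2, 3 or 4 or KO DMSO replicate 4 (DMSO), or WT replicate 4 (3 h and 24 h), was left out. Of the 110 genes listed higher, 96 were called higher and 14 were not called. Some of the 110 passed the filter on low counts only through KO libraries, which fixed their direction. Of the 20 listed lower, 6 were called lower, 13 were not called and 1, hmgcra, was called higher.

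Some genes of matrix-degrading enzymes and their inhibitors were among those with the widest differences. The collagenase gene mmp13a (ENSDARG00000114451, chromosome 10, 38610741 to 38620514) lay at 6.47, 14.9 and 109 CPM (lowest, median and highest of 6) in the KO pools and at 1.46, 2.13 and 2.77 CPM in the WT pools. The lowest KO pool was above the highest WT pool, and the difference was 4.16 ± 0.67 (log2, SE). It rose in the averaged test by 5.03 with an edgeR adjusted p of 6.29e-06. A neighbouring row of the same symbol (ENSDARG00000012395, 38593645 to 38602561) lay at 4.92, 6.40 and 36.9 CPM in KO and 2.41, 2.64 and 3.04 CPM in WT. The rows are close copies, and how reads were split between them is not known.

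The gelatinase gene mmp9 (chromosome 8) lay at 31.1, 62.2 and 205 CPM in KO and 7.97, 9.33 and 11.6 CPM in WT. The difference was 3.19 ± 0.35, and mmp9 rose in the averaged test with an edgeR adjusted p of 2.22e-06. The inhibitor gene timp2b (chromosome 3) lay at 49.6, 98.6 and 178 CPM in KO and 11.1, 11.9 and 13.2 CPM in WT, a difference of 3.07 ± 0.28. An enzyme and an inhibitor of the family thus stood higher in the same pools. The rest of the family showed smaller differences: of 14 tested rows on this list, 4 were separated and higher and 0 lower, with a median of 0.18 against -0.003 over all tested genes, and 7 rose in the averaged test and 0 fell. The largest negative difference was that of timp2a, at -0.31, with overlap. This list and those that follow were drawn up with results of these data in view, so their counts are a description and no independent evidence of direction. Beside the counts of each list, 1.93% of all tested genes were separated in each direction. In the averaged test 9.39% of all tested genes rose and 6.3% fell.

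**Figure D1:**
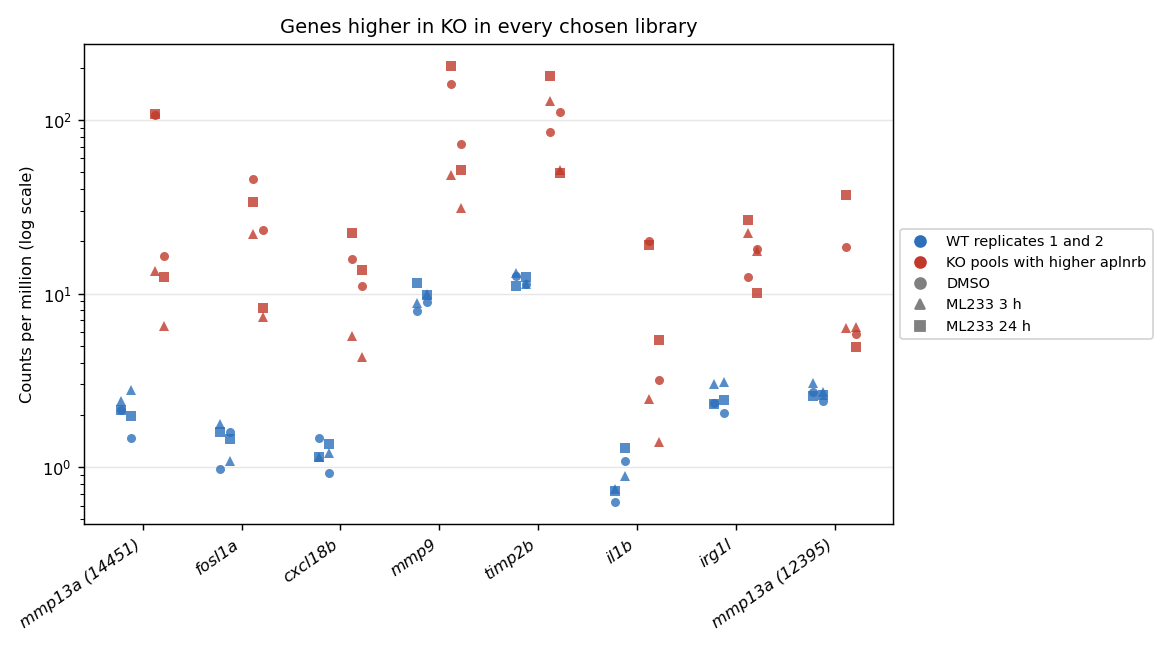
CPM (log axis) of the 8 protein-coding genes with the largest positive differences among separated genes with a descriptive symbol and a mean log2 CPM of at least 1, in each of the 6 KO pools (red) and 6 WT pools (blue), with the treatment as the symbol; the digits after mmp13a are the end of the gene ID. Every KO point lies above every WT point of the same gene, and mmp13a, mmp9 and il1b show pools far above the rest of the KO pools.

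Several secreted signals of inflammation were higher in the KO pools. Of 16 tested cytokine, chemokine and related genes, 5 (il11b, il11a, lepb, csf3b and saa) passed the filter on low counts only through the KO libraries, so their direction was fixed by it. Of the other 11, 5 were separated and higher and 0 lower, the median difference was 1.00, and all 11 rose in the averaged test. The interleukin-1 beta gene il1b (chromosome 10) lay at 1.39, 4.3 and 20.2 CPM in KO and 0.626, 0.818 and 1.30 CPM in WT, a difference of 3.06 ± 0.52. The chemokine gene cxcl18b (chromosome 1), which attracts neutrophils in zebrafish, lay at 4.32, 12.4 and 22.2 CPM in KO and 0.922, 1.18 and 1.47 CPM in WT. Its difference was 3.21 ± 0.24, and it rose in the averaged test with an edgeR adjusted p of 1.52e-06. The neutrophil attractant cxcl8b.1 stood 2.39 ± 0.35 higher at lower levels, 0.909 to 3.30 CPM in the KO pools against 0.196 to 0.648 CPM in the WT pools. The cyclooxygenase genes ptgs2a and ptgs2b, whose enzymes make prostaglandins, differed by 1.30 ± 0.24 and 1.1 ± 0.21.

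Cytokines that signal through gp130 or related receptors were close to absent in the WT pools. For il11b, an interleukin-11 gene, the 6 KO pools held 291 counts and the 6 WT pools 1 count, with 5 WT pools at 0, a ratio of 252 with a 95% counting interval of 44.9 to 9999. Its paralog il11a lay at 2.0, 4.45 and 7.08 CPM in KO and 0.0544, 0.123 and 0.298 CPM in WT, a difference of 4.93 ± 0.37. The leptin gene lepb, which is induced in regenerating zebrafish tissue, lay at 1.68, 4.82 and 9.44 CPM in KO and 0.0261, 0.0917 and 0.217 CPM in WT, a difference of 5.61 ± 0.48. The granulocyte factor gene csf3b lay at 0.300, 0.406 and 3.69 CPM in KO and 0, 0.111 and 0.298 CPM in WT, with KO and WT all but touching. The acute phase gene saa had a large fitted difference, 3.97 ± 0.78, but its lowest KO pool (0.241 CPM) lay under its highest WT pool (0.295 CPM). As genes that passed the filter only through KO libraries, these 5 are described and support nothing about the list. The smallest difference on the list was that of cxcl12a, at 0.00.

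The feedback inhibitors of STAT3 signalling were higher as well. Of 8 tested genes of the STAT3 and C/EBP list, 5 were separated and higher (socs3a, socs3b, cebpb, stat3 and il6st) and 0 lower, with a median of 0.39, and 7 rose in the averaged test. For socs3a (chromosome 3) the KO pools lay at 17.3, 26.5 and 38.5 CPM and the WT pools at 6.45, 12.9 and 16.2 CPM, a difference of 1.22 ± 0.13. The receptor subunit gene il6st, which encodes gp130, lay at 58.6, 66.9 and 80.0 CPM in KO and 47.0, 52.9 and 54.3 CPM in WT, a difference of 0.37 ± 0.06. The leptin receptor gene lepr had the only negative difference on the list, -0.10, with overlap. The inhibitor genes thus differed by more than the transcripts of the receptor subunit and of stat3 itself, at 0.42 ± 0.05.

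The AP-1 family differed by member. The Fos-related gene fosl1a (chromosome 14, 30739476 to 30747686) lay at 7.35, 22.6 and 45.9 CPM in KO and 0.979, 1.52 and 1.77 CPM in WT, a difference of 4.0 ± 0.40. It rose in the averaged test with an edgeR adjusted p of 0.0001. The stress-induced factor gene atf3 lay at 11.8, 18.8 and 22.1 CPM in KO and 5.21, 6.17 and 7.07 CPM in WT, and the Jun genes junbb and junba differed by 1.26 ± 0.10 and 1.13 ± 0.13. The growth-factor-induced egr genes did not follow: egr1 differed by 0.11, egr3 by 0.10 and egr2b by -0.11, all with overlap. Of 17 tested AP-1 and immediate early genes, 7 were separated and higher and 0 lower, the median was 0.46, and 7 rose and 1 fell in the averaged test.

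The gene irg1l, known in zebrafish for its induction in epidermal cells during inflammation, lay at 10.1, 17.9 and 26.7 CPM in KO and 2.06, 2.39 and 3.10 CPM in WT, a difference of 2.82 ± 0.20. Other listed genes, chosen here after their values were seen, were odc1, the first enzyme of polyamine synthesis (72.0 to 138 CPM in KO, 29.5 to 36.7 CPM in WT), stat1b of interferon signalling (1.36 to 2.83 and 0.461 to 0.940 CPM) and tcap of the muscle sarcomere (11.97 to 22.7 and 4.61 to 7.63 CPM).

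Leukocyte markers gave smaller differences than the cytokines. Of 7 tested macrophage markers, 3 were separated and higher (mpeg1.2, marco and lcp1) and 0 lower, with a median of 0.33, and 5 rose in the averaged test. The shares over all tested genes were 1.93% separated and higher and 9.39% that rose. The macrophage perforin gene mpeg1.2 lay at 15.2, 19.8 and 26.2 CPM in KO and 6.84, 9.06 and 12.3 CPM in WT. Its paralog mpeg1.1 differed by 0.44 and csf1ra, the receptor of macrophage growth factor, by -0.16, both with overlap; the antigen presentation gene cd74a had the largest negative difference, -0.36. None of the 4 tested neutrophil markers was separated, and their differences lay between 0.11 (npsn) and 0.23 (cxcr2, which passed the low-count filter only through KO libraries). The peroxidase gene mpx, at 21.8 to 28.1 CPM in the KO pools against 18.2 to 24.7 CPM in the WT pools, differed by 0.22 ± 0.07 here and by 1.86 in the 12 libraries that were not chosen. The part of leukocyte numbers in the cytokine levels was not tested.

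The median differences of complement and liver transcripts were smaller in these pools than in the other 12 libraries. Of 13 tested complement rows, 2 were separated and higher (c3a.1 and c3a.6) and 0 lower, and the median was 0.34; 12 rose in the averaged test, and the median in the other 12 libraries was 2.52. Among them c6 of the membrane attack complex had the largest difference, 1.13, in a row that passed the low-count filter only through KO libraries, and the inhibitor cfh the lowest, -0.25, both with overlap. Of 11 liver plasma protein genes, 1 was separated and higher (fga of fibrinogen, 0.29), 2 were separated and lower (ambp, -0.36, and the thyroid hormone carrier ttr, -0.42), and the median was -0.02. In the other libraries that median was 0.83, and 5 of the 11 rose in the averaged test. Among all tested genes 1.93% were separated in each direction in the chosen libraries, and 9.39% rose in the averaged test. The calls of both lists in the averaged test therefore stand beside medians of 0.34 and -0.02 in the chosen pools. Whether the sets of libraries differ was not tested.

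**Figure D2:**
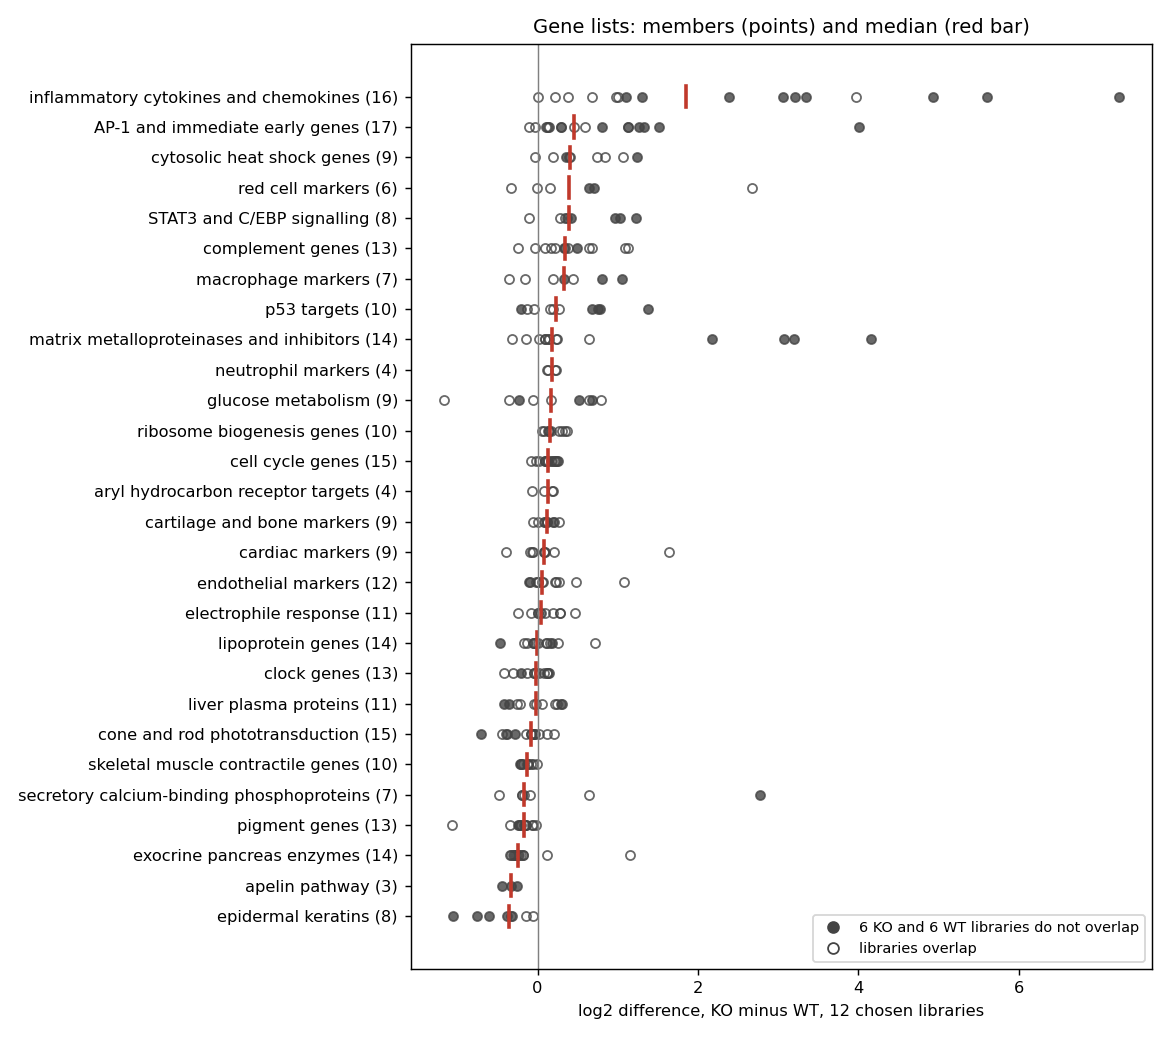
Log2 difference, KO minus WT, in the 12 chosen libraries for each tested member (points) of 28 gene lists, with the list's median as a red bar and the number of tested rows in brackets. Filled points are genes whose 6 KO and 6 WT libraries do not overlap; the cytokine list has the highest median, 1.85, or 1.00 without the 5 members that passed the low-count filter only through KO libraries, and the epidermal keratins the lowest, -0.36.

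Stress genes showed a mixed picture, beside 1.93% of all tested genes separated in each direction and 9.39% that rose in the averaged test. Of 9 cytosolic heat shock genes, 2 were separated and higher (hsp70.3 and hspb1), the median was 0.41, and 8 rose in the averaged test. The chaperone gene hsp70.3 lay at 16.8, 26.8 and 35.7 CPM in KO and 8.87, 10.6 and 16.6 CPM in WT, and hsf1, their transcription factor, differed by -0.03. Of 10 rows of p53 targets, 4 were separated and higher (cdkn1a, phlda3, mdm2 and gadd45aa) and 1 lower (sesn1, -0.21), with a median of 0.23 and 5 that rose in the averaged test. The cell cycle inhibitor gene cdkn1a lay at 5.42, 6.39 and 12.7 CPM in KO and 2.37, 3.07 and 3.80 CPM in WT, a difference of 1.38 ± 0.20. Its difference was 0.05 in the other 12 libraries, and it was not called in the averaged test (edgeR adjusted p = 0.275).

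Several other genes that were higher in the chosen KO pools overlapped between genotypes in the 12 other libraries. The cardiac actin gene actc1a (chromosome 19, 47549568 to 47555956) lay at 36.5, 45.6 and 52.3 CPM in KO and 3.70, 11.6 and 16.7 CPM in WT, a difference of 1.96 ± 0.22. In the other 12 libraries it lay at 4.57 to 7.76 CPM in the KO pools against 6.95 to 11.7 CPM in the WT pools, a difference of -0.56. The averaged test gave an edgeR adjusted p of 0.0501, which is not a call. Of 9 tested cardiac markers, a list without actc1a, 0 were separated, with a median of 0.08 and extremes of 1.63 (nppb, which encodes a natriuretic peptide) and -0.40 (nkx2.5). The immediate early gene fosb differed by 1.33 here and -0.19 there, and birc2, an inhibitor of apoptosis, by 1.21 and -0.23, neither called. In all, 22 of the 110 genes listed higher overlapped between KO and WT in the other libraries, and 0 were separated in the opposite direction. The difference between the sets of libraries was not tested.

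Most genes listed higher were also listed in the other 12 libraries, which share no sample with the chosen ones. Of the 110, 87 were listed higher there, which is 79.1% of the 110 and 6.95% of the 1251 genes listed there (4.63% of all tested). The low-count filter used all 24 libraries. Some of the 110, il11b, il11a, lepb and csf3b among them, passed it only through KO libraries, so their direction was fixed by it. For such genes the share is no independent evidence of direction, and how many of the 110 they make up was not counted. The median of the 110 was 2.32 in the other libraries, and 83 of them differed by more there than in the chosen pools. Separation was more common there too, at 3303 genes higher (12.2%) and 2849 lower (10.5%). Of the 522 genes separated and higher in the chosen libraries, 258 were separated and higher in the others (49.4% of 522, 7.81% of 3303) and 25 were separated the other way. The WT pools themselves were not at 1 level: fosl1a, at most 1.77 CPM in WT replicates 1 and 2, lay at 3.46 to 9.29 CPM in WT replicates 3 and 4, and socs3a, at most 16.2 CPM in the former, at 27.3 to 38.0 CPM in the latter. The same held for atf3, at 10.3 to 16.4 CPM in WT replicates 3 and 4, and for cebpb, at 52.5 to 67.2 CPM. It held too for socs3b (27.8 to 39.4 CPM), ptgs2a (18.0 to 28.5 CPM) and ptgs2b (5.58 to 9.84 CPM). A difference here is therefore one against the lower of 2 WT levels for these genes. In each of them the chosen KO pools overlapped WT replicates 3 and 4. In mmp9 and cxcl18b they did not, as those WT pools held at most 15.3 and 2.31 CPM. How many of the 110 overlap in this way was not counted.

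**Figure D3:**
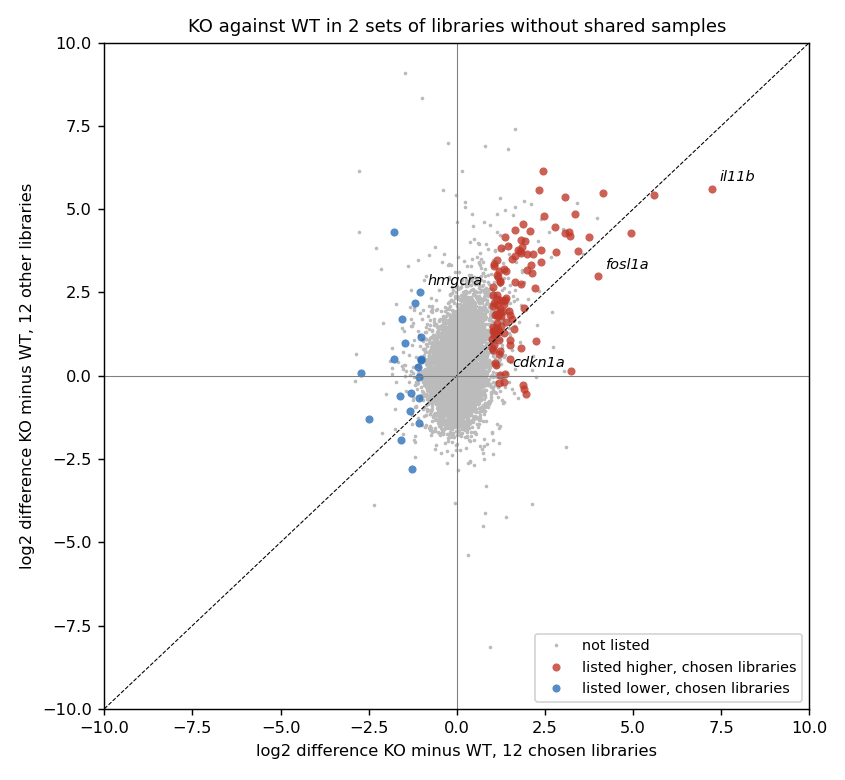
Log2 difference, KO minus WT, of each tested gene in the 12 chosen libraries (x axis) and in the 12 other libraries (y axis), with genes listed higher in red, genes listed lower in blue and a dashed line of equal difference. Most red points lie above the line, with a median of 1.39 on the x axis and 2.32 on the y axis, and the blue points spread to both sides of 0 on the y axis.

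Genes listed lower were fewer, and a smaller share of them than of the genes listed higher was also listed in the other libraries. Of the 20, 4 were listed lower in the other libraries (20% of the 20 and 0.928% of the 431 listed lower there, 1.6% of all tested), 3 were separated and higher there (hmgcra, zgc:77517 and si:ch1073-340i21.3), and their median was -1.28 here and 0.17 there. Of the 520 genes separated and lower, 141 were separated and lower in the others (27.1% of 520, 4.95% of 2849) and 55 the other way. Among all tested genes, 10.5% were separated and lower in the other libraries and 12.2% separated and higher. The synaptojanin gene synj1 (chromosome 10, 26515946 to 26569350), which encodes a lipid phosphatase of synaptic vesicle recycling, lay at 5.98, 10.2 and 11.7 CPM in KO and 16.7, 19.3 and 24.2 CPM in WT. The difference was -1.08 ± 0.10, and in the other libraries it was -0.05. The gene hmgcra, which encodes the rate-limiting enzyme of cholesterol synthesis, lay at 2.0, 3.07 and 4.08 CPM in KO and 4.22, 6.06 and 9.0 CPM in WT, a difference of -1.05 ± 0.18. In the other libraries KO was the higher genotype, at 21.4 to 30.5 CPM against 3.09 to 5.54 CPM in WT, and the averaged test called hmgcra higher (edgeR adjusted p = 0.0433) against its direction in the chosen pools.

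The protease gene rhbdl2 and the carbonic anhydrase gene ca4b kept 1 direction. For rhbdl2 (chromosome 16) the KO pools lay at 3.27, 4.26 and 5.03 CPM and the WT pools at 6.22, 7.62 and 9.05 CPM, a difference of -0.84 ± 0.12 here and -1.06 in the other libraries, where it was separated too. It fell in the averaged test with an edgeR adjusted p of 7.89e-05. For ca4b (chromosome 15) the KO pools lay at 5.25, 8.37 and 9.15 CPM and the WT pools at 12.4, 14.4 and 16.5 CPM. The difference was -0.83 ± 0.10 here and -0.64 in the other libraries, where KO and WT overlapped. In the averaged test ca4b fell with an edgeR adjusted p of 1.56e-04. The oligodendrocyte lineage factor gene olig1, listed but under the mean level set for naming, lay at 1.07, 1.21 and 1.36 CPM in KO and 2.36, 2.81 and 3.83 CPM in WT, a difference of -1.26 ± 0.13 here and -2.80 in the other libraries.

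The carboxylesterase gene ces2, the transcription cofactor gene zfpm1 and tango6 lie close together on chromosome 18, between 17032312 and 17415609, and were separated and lower, though by less than 2-fold. They were named for their values, and the tested genes between them were not counted. On chromosome 18 as a whole 2.29% of 698 tested genes were separated, against 3.86% of all tested genes. For ces2 the KO pools lay at 64.4, 118 and 137 CPM and the WT pools at 184, 194 and 259 CPM. The differences were -0.93 ± 0.14 for ces2, -0.82 ± 0.16 for zfpm1 and -0.81 ± 0.15 for tango6, and they were 0.47, -0.44 and -0.17 in the other libraries, with overlap in each. The phospholipase gene pla2g4f.1 differed by -0.74 ± 0.14 here and 0.39 there. None of the 4 was called in the averaged test.

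**Figure D4:**
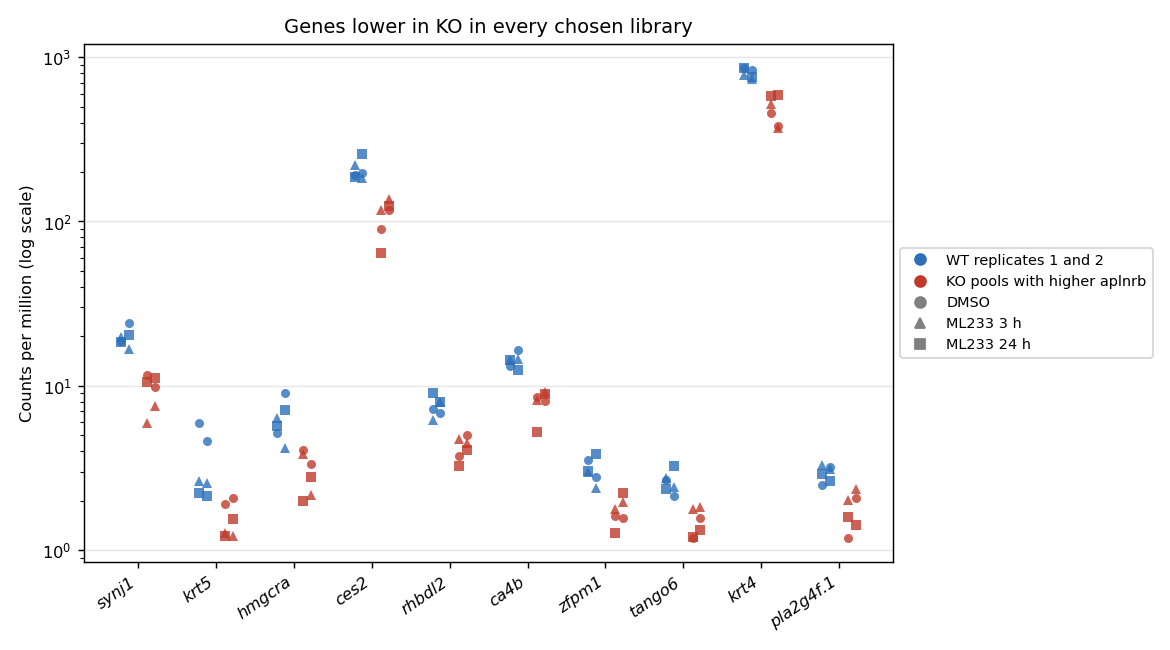
CPM (log axis) of the 10 protein-coding genes with the largest negative differences among separated genes with a descriptive symbol and a mean log2 CPM of at least 1, in each of the 6 KO pools (red) and 6 WT pools (blue), with the treatment as the symbol. Every KO point lies below every WT point of the same gene; krt4 has the highest levels, 372 to 587 CPM in the KO pools against 739 to 864 CPM in the WT pools.

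Epidermal keratins, the intermediate filaments of the skin, formed the list with the most members that were separated and lower. Of 8 tested, 5 were separated and lower (krt4, krt5, cyt1l, krt91 and krt92) and 0 higher, and the median was -0.36. In krt5 (chromosome 23) the KO pools lay at 1.22, 1.41 and 2.08 CPM and the WT pools at 2.14, 2.61 and 5.98 CPM, a difference of -1.06 ± 0.14. In krt4 (chromosome 6) they lay at 372, 485 and 587 CPM and at 739, 803 and 864 CPM, a difference of -0.75 ± 0.09. In the other 12 libraries krt5 differed by -1.43 and krt4 by -0.04, the list's median was 0.04, and 0 of the 8 were separated in either direction. The averaged test called 3 of the 8 lower (krt4, krt5 and cyt1) and 6.3% of all tested genes. Separated and lower in the chosen libraries were 1.93% of all tested genes. The smallest difference was that of evpla, which encodes envoplakin, at -0.05.

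Photoreceptor and pigment genes were examined because the eye and the melanocytes are prominent at this age and because tyrosinase, encoded by tyr, makes melanin. Of 15 phototransduction genes, 3 were separated and lower (arr3a, arr3b and grk7a) and 0 higher, with a median of -0.08 in the chosen libraries and -1.17 in the others. The cone arrestin gene arr3a (chromosome 10) lay at 66.6, 79.9 and 85.7 CPM in KO and 113, 129 and 147 CPM in WT, a difference of -0.70 ± 0.05 here and -1.35 there, and it fell in the averaged test with an edgeR adjusted p of 3.00e-06. The red opsin gene opn1lw1 had the highest value on the list, 0.21, with overlap. Over all tested genes 1.93% were separated and lower in the chosen libraries.

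All 13 pigment genes had a negative difference, from -0.02 (slc24a5) to -1.07 (mlpha, at under 1.3 CPM), but 1 was separated, the melanocyte receptor gene kita at -0.24. For tyr the KO pools lay at 5.15, 6.84 and 8.15 CPM and the WT pools at 6.25, 7.33 and 9.36 CPM, with overlap and a difference of -0.15 ± 0.11. In the averaged test 2 of the 13 fell (sox10 and tyrp1a), and tyr was not called (edgeR adjusted p = 0.99). Over all tested genes 1.93% were separated and lower and 6.3% fell.

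A run of globin genes, chosen here after its values were seen, was higher in the chosen KO pools. It was picked as a run of separated genes, so its share of separated rows is high by construction. Among all tested genes 1.93% were separated in each direction. On chromosome 3, between 55120330 and 55147788, 5 of 6 tested rows were separated and higher, all globin genes or close copies (hbae1, a second row named hbae1, AL935210.1, hbae1.3 and hbae3), with a median of 0.77. The highest of them, hbae3, lay at 463, 526 and 586 CPM in KO and 290.4, 338 and 353 CPM in WT, a difference of 0.70 ± 0.04 here and -0.44 in the other libraries. None of the 5 was separated and higher in the other libraries, and hbae3 was not called (edgeR adjusted p = 0.998). The red cell anion exchanger gene slc4a1a moved the same way, at 75.6 to 93.5 CPM in the KO pools against 50.4 to 58.2 CPM in the WT pools, and differed by -0.96 in the other libraries. Of 6 tested red cell markers these 2, hbae3 and slc4a1a, were separated and higher and 0 lower. The extremes were 2.68 for hbbe3, which is at or near 0 in the chosen pools, and -0.33 for hbbe1.1. The row of hbbe3 passed the low-count filter only through KO libraries, so its direction was fixed by it. Near-identical globins share reads, so values of single globin rows are uncertain.

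The apelin genes were lower in the KO pools by small amounts. The ligand gene apln (chromosome 14, 33722950 to 33757715) lay at 85.2, 87.7 and 95.2 CPM in KO and 102, 106 and 112 CPM in WT, a difference of -0.26 ± 0.03. The receptor gene aplnra (chromosome 8, 40325690 to 40327397) lay at 17.2, 19.5 and 21.3 CPM in KO and 23.4, 24.7 and 25.8 CPM in WT, a difference of -0.33 ± 0.05. The receptor gene aplnrb (chromosome 10, 8629275 to 8631361), on which the pools were chosen, lay at 16.1, 16.6 and 17.7 CPM in KO and 21.4, 22.8 and 24.8 CPM in WT, a difference of -0.44 ± 0.05. In the other libraries these differences were -0.17, -0.69 and -1.23. For aplnrb the gap between chosen and left-out KO pools was fixed by the choice. Choosing on this gene also narrows the spread behind its SE. All 3 fell in the averaged test, with edgeR adjusted p-values of 7.98e-04, 1.35e-04 and 1.35e-04. The second ligand gene, apela, had too few counts to be tested.

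Neighbours of these loci did not stand apart as a group. Within 1 M bases of aplnra 0 of 42 tested genes were separated, near aplnrb 0 of 57 and near apln 2 of 53, slc25a5 and arr3b, both lower, against 3.86% of all tested genes separated in either direction. Within 5 M bases the shares were 2.24%, 3.33% and 4.58%. The extremes within 1 M bases were ggt1a (0.89) and gck (-1.16) near aplnra, CU633857.1 (0.74) and lhx6 (-0.76) near aplnrb, and ablim3 (0.54) and pttg1 (-0.58) near apln, all with overlap. The glucokinase gene gck lay at 5.84, 10.2 and 20.6 CPM in KO and 18.5, 24.2 and 30.0 CPM in WT, so its highest KO pool lay above its lowest WT pool.

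Metabolic and growth lists had few separated members. Across all tested genes 1.93% were separated in each direction, and 9.39% rose and 6.3% fell in the averaged test. Of 9 glucose metabolism genes, 2 were separated and higher (pfkfb3, which regulates glycolysis, and pck1, the gluconeogenic enzyme, at 0.68 and 0.52) and 1 lower (slc2a2, -0.23), with a median of 0.17. Of 14 lipoprotein genes, 1 was separated and higher (apoba, 0.18) and 1 lower (the HDL receptor gene scarb1, -0.46, with -1.14 in the other libraries and an edgeR adjusted p of 1.21e-05 in the averaged test). The 15 rows of cell cycle genes had a median of 0.13 and 0 separated members, between -0.08 (a row named rrm2) and 0.26 (mcm4), and 3 fell in the averaged test. The 10 ribosome biogenesis genes all had positive differences, 0.05 (polr1a) to 0.37 (dkc1), with 0 separated and 6 that rose.

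In the remaining lists at most 1 member was separated in the chosen libraries, beside 3.86% of all tested genes in either direction. The secretory phosphoproteins had 1 of 7, scpp8, at 1.58, 2.28 and 17.9 CPM in KO and 0.626, 0.931 and 1.24 CPM in WT, with scpp9 lowest at -0.49. Endothelial markers had 1 of 12, pecam1 at -0.10, with extremes of 1.08 (lyve1b) and -0.10 (pecam1). Cartilage and bone markers had 1 of 9 (acana, 0.20), skeletal muscle genes 1 of 10 (acta1b, -0.22) and clock genes 1 of 13 (nr1d2b, -0.20). Electrophile response genes had 0 of 11, with extremes of 0.46 (txn) and -0.24 (gstp2), aryl hydrocarbon receptor targets 0 of 4, with a median of 0.13, and pancreas enzymes 0 of 14, with a median of -0.25. Of 4 hatching gland symbols, 1 was found among the genes counted, and it had too few counts to be tested.

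Some listed genes lay in clusters in the coordinates of the table. A cluster was a run of at least 3 listed genes with starts at most 200 kb apart, bounded by its outermost listed genes. Its share of listed or separated genes is thus high by construction and is no evidence of grouping. Among all tested genes 0.407% were listed higher, and 1.93% were separated in each direction. On chromosome 14, between 11427052 and 11507426, 5 of 6 tested genes were listed higher, among them irg1l and 4 genes without a described name, with differences of 1.36 (si:ch211-153b23.5) to 3.74 (si:ch211-153b23.3). For si:ch211-153b23.3 the KO pools lay at 4.49, 8.79 and 18.2 CPM and the WT pools at 0.469, 0.679 and 1.06 CPM. All 5 were separated and higher in the other libraries as well. On chromosome 4, between 76637548 and 76808437, 7 of 12 tested genes were separated and higher and 6 were listed, mostly of the ms4a17a family of membrane proteins, with differences up to 2.48 (ms4a17a.4), and all 7 were separated and higher in the other libraries. Some of these rows were low. In the KO pools other than DMSO replicate 1 and ML233 24 h replicate 1, ms4a17a.4 lay at 0.160 to 0.622 CPM. In the same pools si:ch73-56d11.3 lay at 0.134 to 0.472 CPM. Rows this low may have passed the low-count filter only through KO libraries, which would fix their direction. On the alternate scaffold CHR_ALT_CTG19_1_3, between 31330883 and 31506186, 4 of 5 tested rows were listed higher, with differences of 1.01 to 1.19. These 4 rows have no described name. In a longer run on this scaffold, up to 31668570, 7 of 9 tested rows were separated and higher. Of these 7 rows, 3 were separated and higher in the other libraries. A run of separated genes, chosen here after its values were seen, lay on chromosome 20, between 25515259 and 25584869. There 5 of 9 tested genes were separated and lower, all cytochrome P450 genes (cyp2n13, cyp2ad3, cyp2p6, cyp2p8 and cyp2p9), with a median of -0.34. Of these 5 genes 1, cyp2p8, was separated and lower in the other libraries. Members of such families are close copies, so the number of separated rows may overstate the number of transcripts.

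The KO pools differed among themselves. ML233 24 h replicate 1 was the highest KO pool for 53 of the 110 genes listed higher, and ML233 24 h replicate 3, of the same treatment, was the highest for 4 and the lowest for 39. The median of the 110 genes over the WT mean was 1.75 (log2) in the former and 1.06 in the latter, and 1.27 to 1.46 in the other 4 KO pools. For 20 of the 110 genes DMSO replicate 1 and ML233 24 h replicate 1 both exceeded the other 4 KO pools, and for 7 (csf3b, scpp8, both mmp13a rows, il1b, mmp9 and il11b) by over 2-fold. In mmp13a (ENSDARG00000114451) these pools averaged 107.7 CPM and the other 4 lay between 6.47 and 16.3 CPM; in il1b the averages were 19.5 and 3.11 CPM. Without these pools, an alternative chosen after seeing the data, the difference was 2.51 for mmp13a (ENSDARG00000114451), 1.1 for mmp13a (ENSDARG00000012395) and 1.82 for il1b. In the ML233 3 h pools alone, which include neither, mmp9 differed by 2.08, cxcl18b by 2.08 and il1b by 1.24.

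**Figure D5:**
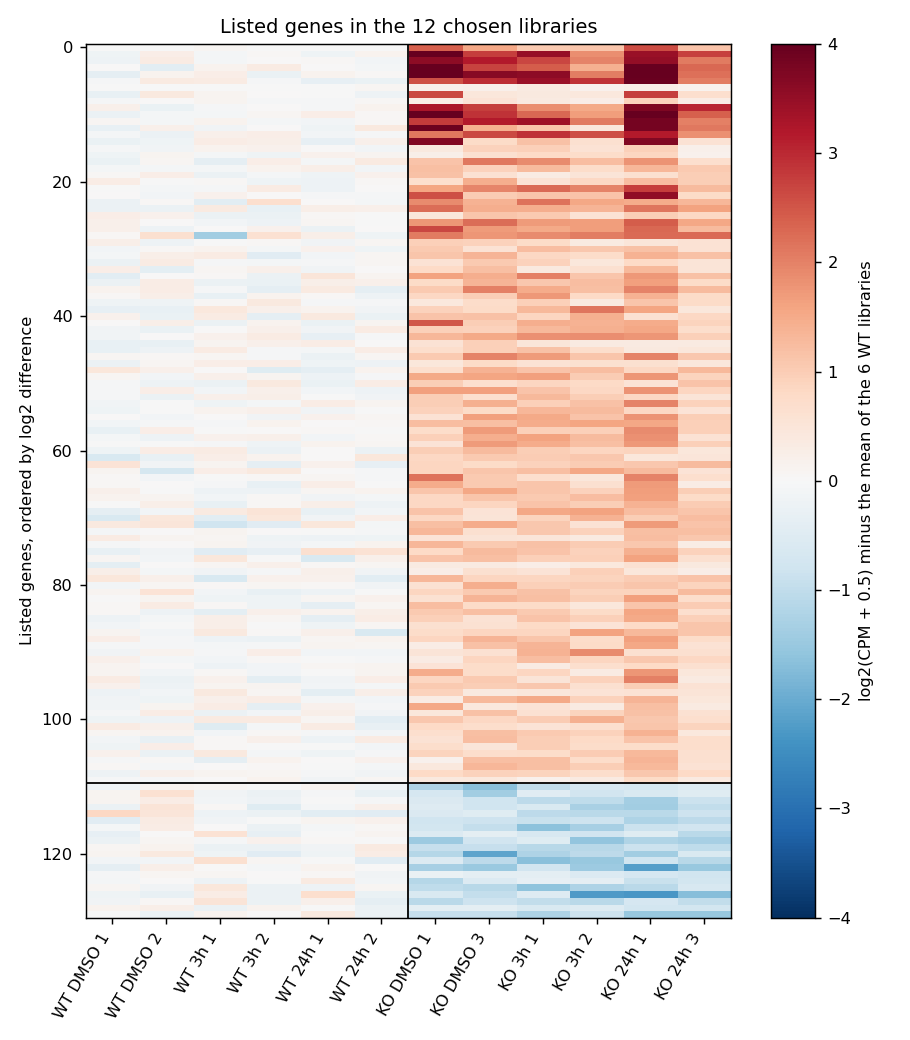
Log2(CPM + 0.5) minus the mean of the 6 WT libraries for the 110 genes listed higher (above the line) and the 20 listed lower (below it), ordered by their difference, in each of the 12 libraries; colours stop at 4 in either direction. The columns KO DMSO 1 and KO 24h 1 are darkest among the top genes, and the column KO 24h 3 is the palest of the KO pools, with a median of 1.06 over the genes listed higher.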

How the data were processed

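Poly(A) RNA was captured and second strands were made with dUTP, per the labels' protocols. The deposited values are raw counts per gene, 1 table for 24 libraries, and columns not mapped to a sample numbered 0. The submitters' processing notes name HISAT2 2.0.5, StringTie, featureCounts, R 4.3.2, DESeq2 1.42.1 and GRCz11, without their roles; positions are those of the table. A strand setting is not given in the sources used here, so antisense, overlapping and near-identical genes are uncertain. CPM used TMM-scaled library sizes. Genes passed filterByExpr (minimum count 10) in edgeR 4.0.16, R 4.3.3. In the 12 chosen libraries, log2 differences and SE came from an edgeR fit with treatment as a block, without a test. The averaged and per-treatment tests were two-sided edgeR quasi-likelihood tests on the 6 labelled groups of 4, with Benjamini-Hochberg adjustment over 27010 genes. P-values measure the spread between labelled replicates, whose independence was not shown. Both fits were checked on simulated data.

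The members and lists were chosen with earlier results of these data known. Named were the 10 separated protein-coding genes with a descriptive symbol and a mean log2 CPM of at least 1 with the largest differences in each direction, the apelin genes, 2 to 4 extremes of each of 29 lists, and extremes within 1 M bases of apelin loci. Every other named gene was chosen after its values were seen. A single gene that the rule names is not reported here. The alternatives were RLE and unscaled totals, no filter, a 1.5-fold threshold, no treatment term, single treatments, DESeq2 1.42.0, a replicate block and leaving out libraries. Counting intervals (95%) cover counting error only, since no molecular identifiers are described.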

Additional observations from a re-analysis of the deposited data

Results flagged for a closer look

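In all, 50 groups of 6 libraries were examined by Dixon's criterion, each in the chosen KO or WT pools. They held the values of 23 genes that the naming rule gives, the apelin genes among them, the library totals and the TMM factors. By chance a library would lie apart in about 1 in 20 groups, or 2.5 of 50. Here 1 library lay apart from the others. It was the carbonic anhydrase gene ca4b in KO ML233 24 h replicate 1, at 5.253 CPM against 8.072 to 9.152 CPM in the other 5 KO pools. The same pool was the highest KO pool for 53 of the 110 genes listed higher. The criterion sets the gap at the end against the whole range, so pools that lie apart together hide each other. In mmp13a (ENSDARG00000114451) this held for KO DMSO replicate 1 and KO ML233 24 h replicate 1, which were therefore not flagged.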

How the results depend on the processing

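The counts listed in the chosen libraries, 110 higher and 20 lower, were 110 and 21 with RLE, 122 and 17 with unscaled totals, 100 to 144 and 21 to 30 when 1 library was left out, 221 and 76 with a 1.5-fold threshold, and 526 and 315 (DMSO), 430 and 279 (3 h) and 484 and 323 (24 h) in single treatments, where 2 against 2 libraries separate more easily. Without the 2 KO pools that lay apart (chosen after seeing the data), 112 were listed higher and 38 lower. Here too, fewer libraries separate more easily. Of 483 values of 23 genes under 21 settings, 19 moved by more than the replicate SD. The 1.5-fold threshold, among these settings, leaves the fitted difference as it is, so its values could not move. Leaving out libraries cannot end the separation or sign of genes chosen as separated; under the settings that could, hmgcra with unscaled totals (-1.01) was no longer separated.

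For labelled groups, the averaged edgeR counts (2537 and 1701) were 1851 to 3154 and 1185 to 2218 when 1 library was left out, 2964 and 2240 with a replicate block, 2940 and 2199 by DESeq2, and 0 and 0 with 4 label-blind components (1435 at unadjusted p under 0.05); the cause was not tested. Counts in DMSO, 3 h and 24 h (40, 40 and 124) were 394, 506 and 756 by DESeq2, 39, 46 and 118 with a replicate block, and 0, 0 and 1 by edgeR on only the 2 groups compared (3282, 3016 and 2578 unadjusted). Leaving out 1 library gave 0 to 82, 0 to 171 and 0 to 799 (at least 1692, 1901 and 2257 unadjusted), the highest without KO DMSO replicate 1, KO 3 h replicate 2 and KO 24 h replicate 3. Whether same-numbered KO and WT pools share more than a number is not stated in the labels. Of 12 same-numbered pairs, 8 correlated above 0.1 and 5 correlated best with their own number. The highest r was 0.467, and the pairs not above 0.1 were all negative, at -0.185, -0.258, -0.45 and -0.585.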
